A study of Saccharomyces cerevisiae with 12 samples.

Results

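The 36 genes described here are nuclear genes for subunits of the respiratory chain and of ATP synthase in the yeast Saccharomyces cerevisiae, though not for every such subunit. They were chosen by gene symbol: 4 subunits of complex II, 9 of complex III, both isoforms of cytochrome c, 9 subunits of complex IV and 12 of complex V, out of 5449 genes measured. All 36 were measured, each by 1 probe set, and none of these probe sets is marked as binding related transcripts. The subunits encoded in mitochondrial DNA were not analysed here.

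Transcript levels were measured on 12 Affymetrix arrays with RNA of strain BY4741 as wild type and of a pat1 mutant. Pat1 acts in the decapping and decay of mRNA that has lost its poly(A) tail, and Congo Red disturbs the yeast cell wall by binding to its polysaccharides. The 4 groups, with 3 arrays each, were wild type without drug, wild type with 30 µg/ml Congo Red for 2 h, pat1 without drug and pat1 with the same dose for the same time. Each of the 3 biological samples of a strain gave 1 array without and 1 with the drug. The labels give BY4741 as the background of every array and do not say how the pat1 allele was made or whether 1 or several clones were used. All comparisons below ask how these transcripts differ with the loss of Pat1 or with the cell wall stress.

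The respiratory chain carries electrons from metabolites to oxygen and pumps protons across the inner mitochondrial membrane. In yeast, complex II (succinate dehydrogenase) and NADH dehydrogenases feed electrons to ubiquinone, complex III (the cytochrome bc1 complex) passes them to cytochrome c, complex IV (cytochrome c oxidase) passes them to oxygen, and complex V (ATP synthase) uses the proton gradient to make ATP. Yeast growing on glucose ferments and keeps many of these genes partly repressed, and the Hap2/3/4/5 activator raises many of them when respiration is needed.

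Signals are log2 values, and a difference of 1 is a 2-fold change. They ran from 2.33 to 14.32 over all probe sets, with array medians of 9.53 to 9.70, and arrays of a group correlated at r of 0.975 to 0.995. As a check of the strains, PAT1 gave 10.50 to 10.93 in wild type and 2.95 to 3.94 in pat1. The mating type a genes that mark BY4741 (MFA1, MFA2, STE2, STE6 and BAR1) gave 10.96 to 13.66. Of 4 genes of the opposite mating type, MF(ALPHA)1 gave 3.74 to 4.98, MF(ALPHA)2 4.82 to 5.503, STE3 5.20 to 7.33 and SAG1 8.54 to 9.35. STE3 was higher in pat1 without drug (1.26, adjusted p = 0.0380), and BAR1 was lower in pat1 with drug (-0.53, adjusted p = 0.0160). Of the marker genes deleted in BY4741, LEU2 gave 2.95 to 4.12 and MET17 3.45 to 4.20. HIS3, which is only partly deleted there, gave 10.53 to 11.18. URA3, which is deleted in BY4741, stood apart on treated wild type array 2 with 7.71 and on untreated pat1 array 1 with 6.76. Without both of these arrays, CYT1, COR1 and QCR7 still passed in the comparisons of strains without and with drug, and QCR2 no longer passed without drug (adjusted p = 0.0604).

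Without drug, every one of the 36 members had a higher mean in pat1 than in wild type, against 47.8% of all genes. The median difference over the members was 0.41, against -0.01 over all genes. On the untreated arrays the median signal of the members was 10.99, 11.34 and 10.68 in wild type and 11.21, 11.39 and 11.83 in pat1. These overlapped, since wild type array 2 lay above pat1 array 1. The members moved together by biological sample, so the 36 are not separate observations of the strains. The 4 members that passed the test were all subunits of complex III: CYT1, COR1, QCR2 and QCR7. A gene passed at an adjusted p under 0.05 in limma, and 3.51% of all genes passed as higher in this comparison, against 11.1% of the members. The fit takes its spread from all 12 arrays and counts both arrays of a biological sample as separate, although they deviated together. With only the 6 untreated arrays none of the 4 passed, at adjusted p of 0.0688 to 0.0989, and 24 of all genes were called in place of 351, while all 4 passed with the biological sample as a random block (correlation 0.631). The other 32 members did not pass, and 12 of the 36 had an unadjusted p under 0.05 with the higher value in pat1, where 11.8% of all genes did.

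**Figure D1:**
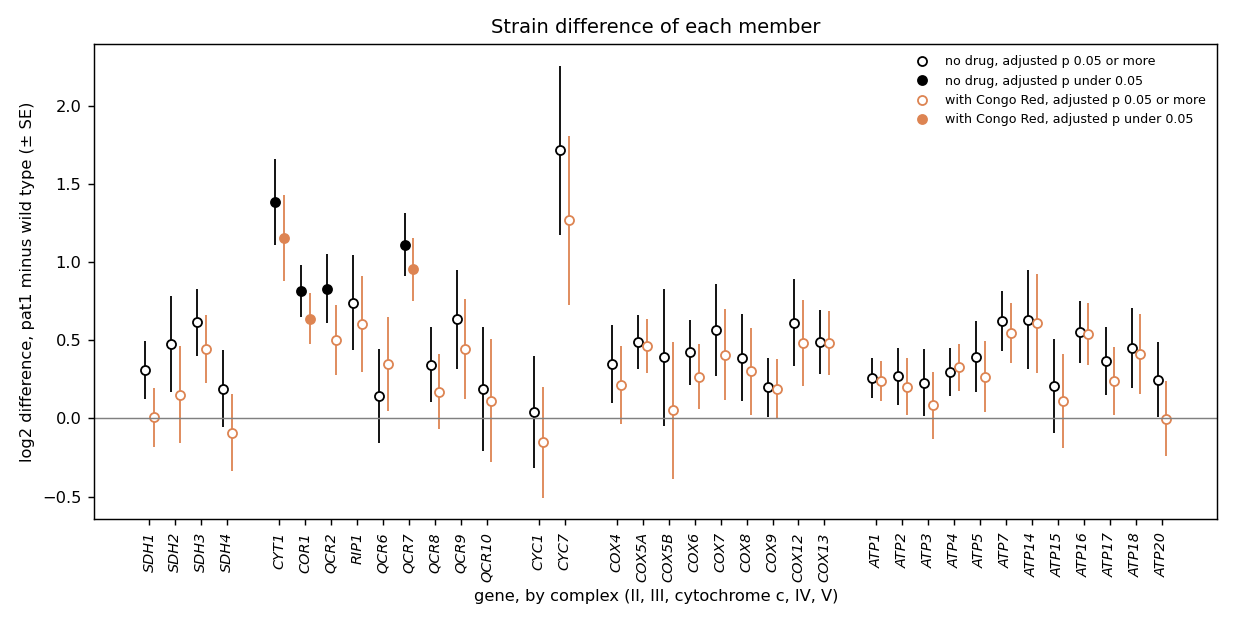
The plot shows, for each of the 36 members, the log2 difference of pat1 minus wild type without drug and with Congo Red, with the members grouped by complex and bars of 1 standard error of the limma fit. CYT1, QCR7 and COR1 of complex III passed in both conditions, and the difference of CYC7, 1.72 without drug, had the widest error.

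Complex III held all the members that passed without drug. CYT1 encodes cytochrome c1, the haem protein that hands electrons to cytochrome c. Its signals were 9.75, 10.12 and 9.35 on the 3 untreated wild type arrays and 10.70, 11.21 and 11.47 on the untreated pat1 arrays. The groups did not overlap, and CYT1 was 2.62-fold higher in pat1 (log2 difference 1.39 ± 0.27 SE, adjusted p = 0.0189).

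QCR7, a small subunit on the matrix side of the complex, gave 12.03, 12.38 and 11.68 in wild type and 13.14, 12.96 and 13.32 in pat1. Every pat1 array lay above every wild type array, by 2.16-fold on average (1.11 ± 0.20, adjusted p = 0.0142). COR1, a core subunit, gave 10.99, 10.98 and 10.70 in wild type and 11.51, 11.74 and 11.87 in pat1, again without overlap. This was a 1.76-fold difference (0.82 ± 0.17, adjusted p = 0.0203). QCR2, the other core subunit, gave 10.62, 10.70 and 10.27 against 11.03, 11.42 and 11.62. It was 1.78-fold higher in pat1 (0.83 ± 0.22), close to the threshold with an adjusted p of 0.0497.

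The remaining 5 subunits of complex III did not pass. RIP1, the Rieske iron-sulfur protein, gave 9.98, 10.45 and 9.98 in wild type and 10.39, 10.86 and 11.39 in pat1. Its groups overlapped, since wild type array 2 lay above pat1 array 1, and the difference was 0.74 (adjusted p = 0.164). QCR9 differed by 0.63, QCR8 by 0.34, QCR10 by 0.19 and QCR6 by 0.14. Over the 9 subunits the median difference was 0.74.

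With Congo Red, 33 of the 36 members had a higher mean in pat1, against 56.7% of all genes, and the median difference was 0.31 against 0.04. The members' median signal was 10.96, 11.33 and 10.83 in treated wild type and 11.13, 11.41 and 11.79 in treated pat1, again with overlap. CYT1, QCR7 and COR1 passed, which is 8.33% of the members beside 4.26% of all genes called higher. With only the 6 treated arrays CYT1 and QCR7 passed, and COR1 did not (adjusted p = 0.0793). The calls over all genes in that fit are not given here. CYT1 gave 9.85, 10.33 and 9.56 on the treated wild type arrays and 10.67, 11.12 and 11.42 on the treated pat1 arrays, again without overlap and 2.23-fold apart (1.16 ± 0.27, adjusted p = 0.0339). QCR7 gave 12.01, 12.41 and 11.64 against 13.01, 12.98 and 12.93, a 1.94-fold difference (0.96 ± 0.20, adjusted p = 0.0217). Its treated pat1 arrays lay close together. COR1 gave 10.96, 11.22 and 10.71 against 11.34, 11.64 and 11.82, a 1.56-fold difference (0.64 ± 0.17, adjusted p = 0.0434).

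QCR2 gave 10.85, 11.14 and 10.68 in treated wild type and 10.94, 11.46 and 11.77 in treated pat1. Here the groups overlapped, and the difference of 0.50 did not pass (adjusted p = 0.199). The comparisons with and without drug use arrays of the same biological samples, so they do not stand as separate evidence.

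The complex III differences kept their direction when single arrays were left out, and the calls did not all hold. Without drug, CYT1 ranged from 1.19 to 1.60, QCR7 from 0.94 to 1.29, COR1 from 0.72 to 0.92 and QCR2 from 0.70 to 1.00. No member passed without untreated wild type array 1, untreated wild type array 3 or untreated pat1 array 3, and the calls over all 5449 genes then fell from 351 to 58, 73 and 86. QCR2 lost its call without 10 of the 12 arrays, with adjusted p up to 0.164, and kept it without treated pat1 array 1 or treated pat1 array 3. With Congo Red, no member passed without treated wild type array 1 or 3 or treated pat1 array 2 or 3, and only QCR7 passed without untreated wild type array 1. COR1 also lost its call without untreated pat1 array 2, and QCR7 lost its call without treated pat1 array 1. Centring the arrays on their medians also ended the call of COR1 with drug.

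Leaving out both arrays of a biological sample was chosen after seeing the data. Without drug, no member passed without wild type sample 1 or pat1 sample 3, QCR7 alone passed without wild type sample 3 or pat1 sample 2, and 6 passed without pat1 sample 1. With Congo Red, none passed without wild type sample 1, wild type sample 3, pat1 sample 2 or pat1 sample 3, while 2 passed without wild type sample 2 and 4 without pat1 sample 1. Those 4 included CYT1 and COR1, and QCR7 was not among them. The share of all genes called is not set beside these counts, which therefore do not compare the members with other genes.

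Groups that do not overlap give a second view of the arrays. Without drug, 7 of the 36 members (19.4%) had all 3 pat1 arrays above all 3 wild type arrays, beside 12% of all genes. With Congo Red, 10 members (27.8%) did, beside 18.2% of all genes. In 5 members, or 13.9%, all 6 pat1 arrays lay above all 6 wild type arrays: CYT1, COR1, QCR7, ATP7 and ATP16. Among all genes 5.96% did so, and no member had the reverse order.

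**Figure D2:**
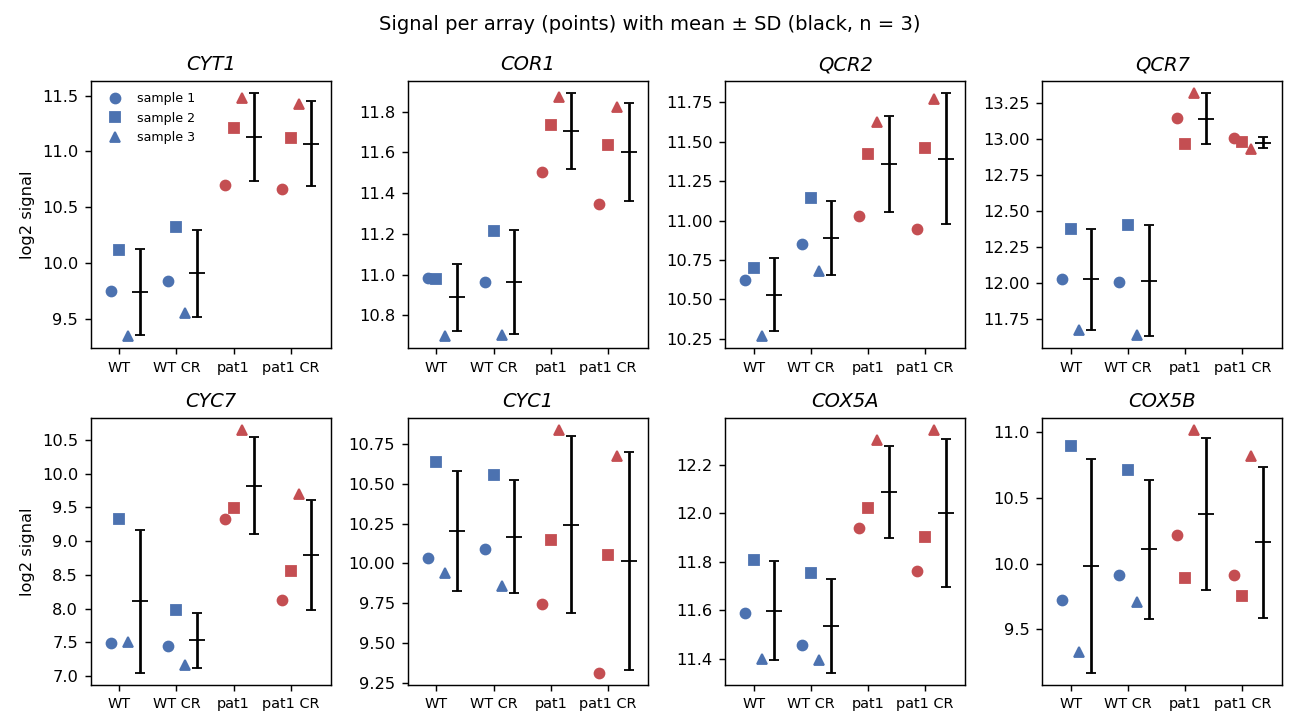
The plot gives the log2 signal of named members on each of the 12 arrays, as points by group (WT is wild type and CR is Congo Red), with group means and standard deviations over 3 arrays. The vertical axes do not start at 0 and differ between genes. For CYT1 and QCR7 the pat1 points lie above the wild type points in both conditions, while for CYC1 the strains overlap.

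None of the 4 subunits of complex II passed in either comparison of strains. SDH3, a membrane anchor of succinate dehydrogenase, gave 10.81, 11.27 and 10.67 in untreated wild type and 11.60, 11.20 and 11.79 in untreated pat1. The groups overlapped, and the difference was 0.62 (adjusted p = 0.108). With Congo Red SDH3 differed by 0.44 (adjusted p = 0.236) with no overlap between the groups. SDH2, the iron-sulfur subunit, differed by 0.48 without and 0.15 with drug, SDH1, the flavoprotein, by 0.31 and 0.01, and SDH4, the other anchor, by 0.19 and -0.09.

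The isoforms of cytochrome c gave different pictures. CYC1, the form made in air, gave 10.03, 10.64 and 9.94 in untreated wild type and 9.75, 10.15 and 10.84 in untreated pat1. The strains overlapped, with a difference of 0.04 (adjusted p = 0.957), and with Congo Red it was -0.15 (adjusted p = 0.838). CYC7, the form known from hypoxia and stress, gave 7.49, 9.33 and 7.50 in untreated wild type and 9.33, 9.49 and 10.65 in untreated pat1. Wild type array 2 stood well above the other two and level with pat1 array 1. The CYC7 difference of 1.72 ± 0.54 was the largest of any member but did not pass (adjusted p = 0.0796). Without untreated wild type array 2, it was 2.33 and passed (adjusted p = 0.0255). This array lowered the difference, so the pass without it is no separate support. CYC7 did not pass with any other single array left out, with adjusted p up to 0.239.

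With Congo Red, CYC7 gave 7.45, 7.97 and 7.16 in wild type and 8.13, 8.55 and 9.70 in pat1. These groups did not overlap, and the difference of 1.27 did not pass (adjusted p = 0.183).

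In complex IV no subunit passed in either comparison of strains. COX5A and COX5B are alternative forms of the same subunit, COX5A used in air and COX5B in hypoxia. COX5A gave 11.59, 11.81 and 11.40 in untreated wild type and 11.94, 12.02 and 12.30 in untreated pat1, without overlap (0.49, adjusted p = 0.112). With Congo Red it gave 11.46, 11.76 and 11.40 against 11.76, 11.90 and 12.34, and differed by 0.47 (adjusted p = 0.131). COX5B gave 9.73, 10.89 and 9.33 against 10.22, 9.89 and 11.02 without drug, with overlap (0.39, adjusted p = 0.630). With Congo Red it gave 9.91, 10.71 and 9.71 against 9.92, 9.75 and 10.82, with overlap and a difference of 0.05.

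COX12, a peripheral subunit, had the largest difference of complex IV without drug, 0.61 (adjusted p = 0.199), and COX13 the largest with drug, 0.48 (adjusted p = 0.182). The other 5 subunits, COX4, COX6, COX7, COX8 and COX9, differed by 0.20 to 0.57 without drug and by 0.19 to 0.41 with drug. The median of the 9 was 0.42 and 0.30.

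In complex V all 12 subunits among the members had a higher mean in pat1 without drug, and none passed. Their differences ran from 0.21 for ATP15 to 0.63 for ATP7 and ATP14, with a median of 0.33. Of further ATP synthase subunits outside the members, ATP19 differed by -0.09 without and -0.28 with drug. TIM11 differed by 0.41 and 0.23, and neither gene passed. ATP7, a subunit of the peripheral stalk, gave 10.73, 10.98 and 10.53 in untreated wild type and 11.13, 11.25 and 11.73 in untreated pat1. These groups did not overlap, and the difference of 0.63 had an adjusted p of 0.0730. ATP16, the delta subunit of the central stalk, gave 11.60, 11.998 and 11.61 against 12.02, 12.25 and 12.61, with the lowest pat1 array just above the highest wild type array (0.55, adjusted p = 0.112).

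ATP14, another subunit of the peripheral stalk, differed by 0.63 without drug (adjusted p = 0.248) and by 0.61 with it (adjusted p = 0.274), and its groups overlapped in both conditions. With Congo Red the differences of the 12 had a median of 0.25. The catalytic subunits ATP1 (alpha) and ATP2 (beta) differed by 0.26 and 0.27 without drug and by 0.24 and 0.20 with it.

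The median responses of the members to Congo Red lay near 0 in both strains. In wild type no member passed in the unpaired fit, where 2.68% of all genes were called in either direction, and 0 members had an unadjusted p under 0.05, where 12.7% of all genes did. The unpaired fit leaves the spread between biological samples in its error, and that spread was wider in the members than in most genes. The count of 0 therefore does not show that a response was absent. With the sample as a block, as below, unadjusted p was under 0.05 for SDH1, SDH4, CYT1, QCR2 and CYC7. The share of all genes under that block is not given here. The members' median response was 0.06, against -0.03 over all genes, and 26 of 36 were above 0, against 42.9% of all genes. The treated and untreated arrays did not overlap in 3 members, SDH1, SDH4 and ATP3, all higher with drug. That is 8.33% of the members, below the 10.6% of all genes. The largest responses in complexes IV and V were 0.15 for COX4 and 0.14 for ATP3.

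Since each biological sample gave both arrays, the response was also fitted with the sample as a block. Then 3 members rose in wild type, SDH1, SDH4 and QCR2. This is 8.33% of the members, near the 8.22% of all genes called higher in that fit. SDH1 gave 9.61, 9.64 and 9.34 without drug and 9.81, 9.90 and 9.88 with it, higher in 3 of 3 samples (0.33, adjusted p = 0.0493 with the block and 0.537 without).

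SDH4 gave 10.20, 10.51 and 10.37 without drug and 10.55, 10.70 and 10.86 with it, also higher in 3 of 3 samples (0.34, adjusted p = 0.0299 with the block and 0.685 without). QCR2 was higher in 3 of 3 samples too, and rose by 0.36 in that fit (adjusted p = 0.0203, and 0.598 without the block). With the block, these calls depended on single biological samples. No member was called without wild type sample 3, SDH4 alone without wild type sample 2, QCR2 alone without pat1 sample 2, and QCR2 and CYC7 without wild type sample 1, while the 3 members named were called without pat1 sample 1 or pat1 sample 3.

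In pat1, likewise, no member passed without the block, beside 0.661% of all genes, and 0 had an unadjusted p under 0.05, beside 5.6% of all genes. Here too the fit without the block keeps the spread between samples in its error. With the block, unadjusted p was under 0.05 for CYC1, CYC7 and COX7, and the share of all genes is not given here. No member had treated and untreated groups without overlap, where 6.85% of all genes were higher and 1.3% lower. The median response was -0.05, against 0.04 over all genes, and 25 of 36 members were below 0, against 38.7% of all genes. The largest response was -0.21 for SDH2 in complex II, -0.17 for QCR7 in complex III, -0.25 for COX7 in complex IV and -0.21 for ATP20 in complex V, none of them past the test. With the block 1 member fell, CYC7, and 0.349% of all genes were called lower. It went from 9.33, 9.49 and 10.65 to 8.13, 8.55 and 9.70, lower in 3 of 3 samples by -1.19, -0.94 and -0.95. The mean of -1.03 ± 0.20 is a 2.04-fold fall (adjusted p = 0.0365 with the block, 0.995 without). This call was lost without any 1 of the 3 pat1 samples, and without wild type sample 3, with adjusted p up to 0.139.

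In wild type CYC7 responded by -0.05, -1.35 and -0.34, a mean of -0.58 that did not pass in either fit (adjusted p = 0.0964 with the block). Its response in wild type rested mostly on sample 2, and without untreated wild type array 2 it was 0.03.

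**Figure D3:**
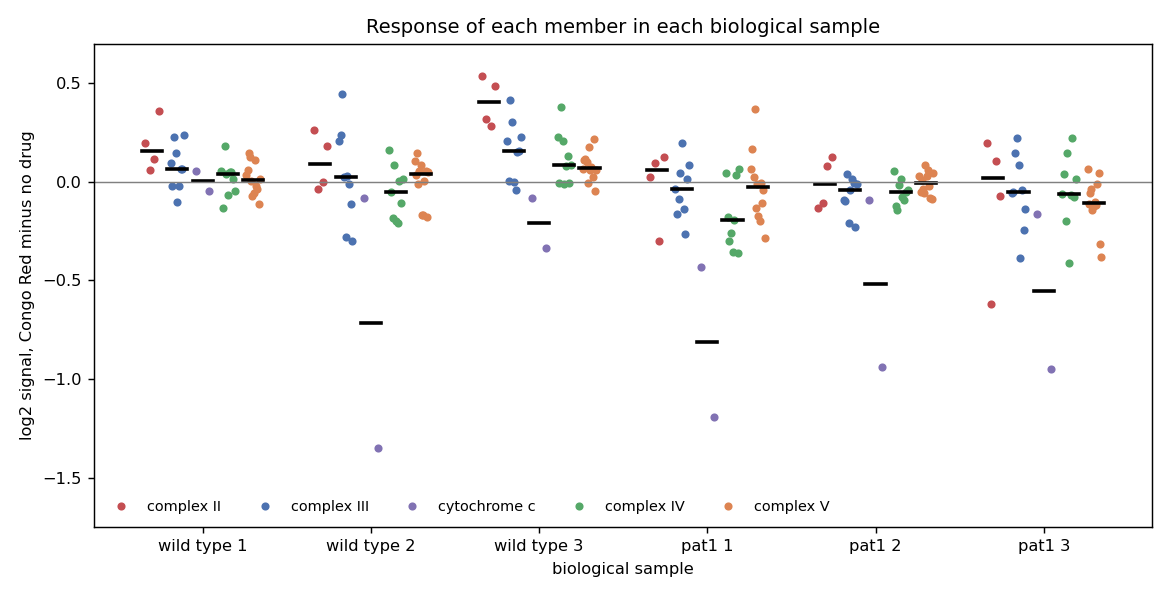
The plot shows the log2 response to Congo Red (treated minus untreated array) of each member in each of the 6 biological samples, coloured by complex, with a bar at the median of each complex. The lowest points are CYC7, at -1.35 in wild type sample 2 and between -1.19 and -0.94 in the pat1 samples.

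The response in pat1 was below the response in wild type for 34 of the 36 members. The median difference in response was -0.14, while it was 0.06 over all genes and 63.2% of all genes were above 0. No member passed this test with or without the block, and none reached an unadjusted p under 0.05 without it. With the block, unadjusted p was under 0.05 for QCR2 (0.0183), CYT1 (0.0438), SDH4 (0.0440) and COX5B (0.0490). Over all genes 0% passed without the block and 0.0551% with it. Without the block 2.39% of all genes reached an unadjusted p under 0.05, and the share with it is not given here. The largest difference in response of each complex was -0.33 for SDH2 in complex II, -0.33 for QCR2 in complex III, -0.45 for CYC7 of cytochrome c, -0.34 for COX5B in complex IV and -0.25 for ATP20 in complex V, with adjusted p of 0.343 to 0.528 with the block. CYT1 responded by 0.09, 0.21 and 0.21 in the wild type samples and by -0.04, -0.09 and -0.05 in the pat1 samples, a difference of -0.23 (adjusted p = 0.397 with the block).

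Per biological sample, the median response of the members was 0.05, 0.00 and 0.11 in wild type and -0.06, -0.04 and -0.06 in pat1. The samples of the strains did not overlap, and the values lay close to 0 in both. When single arrays were left out, the members' median difference in response ran from -0.31 to 0.06. Over all genes the median response was 0.01, -0.05 and -0.04 in wild type and 0.03, -0.01 and 0.12 in pat1. Treated pat1 array 3, of the sample with 0.12, had the highest array median, 9.70. The difference in response over all genes may therefore rest in part on that array.

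The members differed more between biological samples of a strain than most genes did. Their median standard deviation within groups was 0.33, against 0.19 over all genes, and 35 of 36 lay above the median of all genes. CYC7 had the widest spread, 0.79, and ATP1 the narrowest, 0.15. Of the squared deviations from the group means, a median of 96.6% in the members lay between biological samples, against 81.6% over all genes, so the untreated and treated arrays of a sample deviated together.

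**Figure D4:**
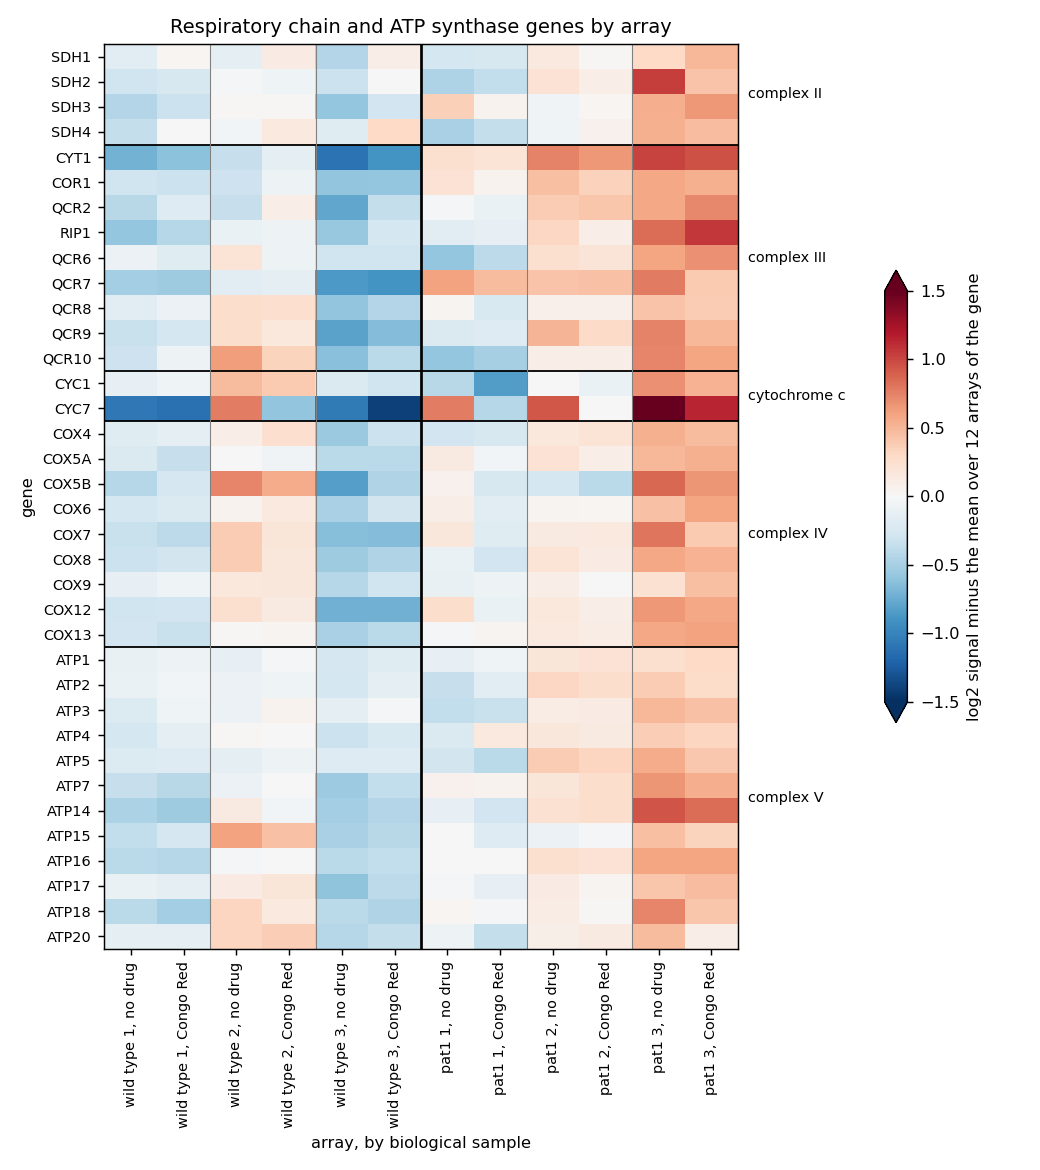
The plot shows the 36 members (vertical axis, by complex) on the 12 arrays (horizontal axis, by biological sample), and the colour is the log2 signal minus the mean of that gene over the 12 arrays. Both arrays of pat1 sample 3 are the reddest of pat1, and both arrays of wild type sample 3 are blue in most members.

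In wild type, sample 2 had the highest signal on both of its arrays in 31 of 36 members (86.1%), where this was so for 22.8% of all genes. In pat1, sample 3 was highest on both arrays in 34 members (94.4%), against 25.9% of all genes. Wild type sample 3 was lowest on both arrays in 24 members and pat1 sample 1 in 28. The median deviation of the members from the group mean was 0.31 on the untreated and 0.27 on the treated array of wild type sample 2, and 0.34 and 0.35 on those of pat1 sample 3. It was -0.30 and -0.31 on those of pat1 sample 1.

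Within complex V the spread was not alike in the strains. The genes given here were chosen after their values were seen. Averaged over both arrays of a sample, ATP1, ATP2, ATP3 (gamma) and ATP5 (the stalk subunit OSCP) ranged over only 0.10 to 0.15 between the wild type samples, but over 0.37 to 0.82 between the pat1 samples. ATP5, for example, gave 11.60, 11.68 and 11.62 in untreated wild type and 11.54, 12.19 and 12.36 in untreated pat1. In all, 8 of the 12 subunits ranged wider in pat1, and 4 ranged wider in wild type. These 4 were ATP17, ATP18, ATP20 and ATP15, the epsilon subunit, whose range was 0.97 in wild type and 0.50 in pat1. Over the 36 members, 23 ranged wider in pat1 and 13 in wild type, so this was not particular to complex V. All 4 subunits of complex II and both forms of cytochrome c ranged wider in pat1. In complex III 5 of 9 did so, and in complex IV 4 of 9. The same count over all genes was not made. QCR7 of complex III also had its narrow range in pat1, 0.15 against 0.73 in wild type, and the pat1 ranges of the other 35 members ran from 0.37 for ATP1 to 1.45 for CYC7.

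The forms known from hypoxia, COX5B and CYC7, had wide ranges between samples in both strains. COX5B ranged over 1.28 in wild type and 1.09 in pat1, against 0.38 and 0.47 for COX5A. CYC7 ranged over 1.32 and 1.45, against 0.70 and 1.23 for CYC1. The differences between these ranges were not tested.

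Other genes moved with the same samples. HAP4 encodes the regulated subunit of the Hap activator, and it gave 8.96, 9.61 and 8.17 in untreated wild type and 9.67, 9.75 and 10.37 in untreated pat1. The groups did not overlap, and its difference of 1.01 ± 0.37 did not pass (adjusted p = 0.123). With Congo Red it gave 9.18, 9.63 and 8.51 against 9.71, 9.74 and 10.43, again with no overlap and a difference of 0.85 (adjusted p = 0.192). HAP4 was highest in wild type sample 2 and pat1 sample 3 on both arrays. HAP1, a haem-responsive activator, differed by 0.06 and 0.24 and did not pass.

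A list of 15 general stress genes was also high in these samples. Its median deviation from the group mean was 0.32 and 0.17 on the arrays of wild type sample 2 and 0.59 and 0.66 on those of pat1 sample 3. Its summed signal, in log2, ran from 13.47 to 14.52 in untreated wild type, 13.74 to 14.47 in treated wild type, 14.24 to 15.38 in untreated pat1 and 13.99 to 15.07 in treated pat1. Between strains its median difference was 1.21 without drug, with 14 of 15 above 0, and 0.52 with drug. The catalase gene CTT1 (1.92) and GRE1 (1.33) passed without drug, and GRE1 (1.15) with drug. In the block fit of the drug response, 3 of the 15, CTT1 (-0.54), DDR2 (-0.81) and PGM2 (-0.50), fell in pat1, where 0.349% of all genes were called lower. Another 3, HSP12 (0.67), TPS2 (0.39) and GSY2 (0.50), rose in wild type, where 8.22% were called higher. None of these 6 passed without the block. The part of these genes, and of the state of the culture, in the members' differences was not tested.

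Wild type sample 2 and pat1 sample 3, in which most members were highest on both arrays, were then left out. This choice follows the members' own values, so calls made without these samples are no separate support. The share of all genes called without them is not given here. The untreated strains differed by 1.40 for CYT1, 1.20 for QCR7 and 1.91 for CYC7, and these 3 members passed. COR1 (0.78, adjusted p = 0.0594) and QCR2 (0.78, adjusted p = 0.103) then missed the threshold. With drug QCR7 and CYC7 passed, while CYT1 (1.19, adjusted p = 0.0530) and COR1 (0.66, adjusted p = 0.0971) did not.

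Genes known to be repressed by glucose, 14 of 15 of them measured, had a median strain difference of 0.45 without drug and 0.29 with it. GLK1, a glucokinase (0.73, adjusted p = 0.0380), and CAT2, a carnitine acetyltransferase (0.45, adjusted p = 0.0473), passed without drug, and none with drug. Of 11 genes of the TCA cycle, which supplies the chain with electrons, the median was 0.06 without and -0.02 with drug. MDH1, the mitochondrial malate dehydrogenase, was higher in pat1 in both conditions (0.72, adjusted p = 0.0229, and 0.65, adjusted p = 0.0335). CIT1, citrate synthase, rose in wild type with Congo Red (0.72, adjusted p = 0.0113) and was lower in treated pat1 than in treated wild type (-0.62, adjusted p = 0.0214).

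Among the 10 regulators, CAT8, an activator of genes for growth without sugar, passed as lower in pat1 with Congo Red (-0.63, adjusted p = 0.0351), and no other passed between strains. The 10 electron donors to the chain had no gene past the test in either comparison of strains. PUT1, the proline oxidase, had the largest difference, 2.31 without drug (adjusted p = 0.0729) and 1.86 with it (adjusted p = 0.138). In wild type treated with Congo Red, PUT1 (0.72, adjusted p = 0.00230) and the NADH dehydrogenases NDE2 (0.65, adjusted p = 0.00852) and NDI1 (0.31, adjusted p = 0.0279) passed with the block, and none passed without it. CAT8 also passed with the block there (0.62, adjusted p = 0.0111). These are 3 of the 10 donors and 1 of the 10 regulators, beside 8.22% of all genes called higher in that fit. Signals were low for NDE2, at 4.47 to 5.49 on the wild type arrays, and for CAT8, at 5.47 to 6.38. MET17, which is deleted in BY4741, gave up to 4.20.

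Assembly factors changed in few cases. Of 32 for complex IV, SCO2 was higher in pat1 without drug (0.84, adjusted p = 0.0282). Of 12 for complex V, ATP22 rose in wild type with Congo Red (0.95, adjusted p = 0.0220). With the block, the complex II factors SDH5 (0.43, adjusted p = 0.0231) and SDH8 (0.40, adjusted p = 0.0163), both of 5 measured, rose in wild type with Congo Red, as did CYC3, the haem lyase of cytochrome c (0.62, adjusted p = 0.00563). PET100, a complex IV factor, fell in the same comparison with the block (-0.27, adjusted p = 0.0320). None of these 4 passed without the block. Of all genes, 8.22% were called higher with the block in this comparison. Of the 7 measured other subunits and regulators of the complexes, none passed without the block, and STF1 (0.85, adjusted p = 0.0111) and SHH3 (0.66, adjusted p = 0.0475) rose in wild type with Congo Red with it. The SHH3 signal was low, 4.62 to 5.94 on the wild type arrays.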

How the data were processed

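The authors deposited 1 table of log2 expression values for 5739 probe sets on 12 arrays. Per the submitters' processing notes they come from RMA, which corrects background, quantile normalizes and summarises probes; no version is named. These log2 values were used as deposited. Quantile normalization sets the arrays to a common distribution, so a change of all transcripts together would not show. After leaving out 23 control probe sets and 218 without a gene symbol, 5498 probe sets gave 5449 genes, with the brightest probe set for 47 genes. Symbols came from the platform annotation, 12 of them updated through the RefSeq gene table. Coordinates are left out because the build behind the annotation was not given in the sources used here.

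All 12 arrays entered 1 limma 3.58.1 fit of the 4 group means (lmFit and eBayes, R 4.3.3), with 8 residual degrees of freedom and Benjamini-Hochberg adjustment over 5449 genes. Errors are the moderated standard errors. Figures used Python 3.11.15, pandas 2.3.3 and matplotlib 3.10.9. The steps were tested on simulated data. The 36 members and the gene lists were chosen with earlier results of these data known.

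The design text pairs the arrays of a biological sample. Deviations of same-numbered arrays of a strain correlated at 0.648, 0.801 and 0.782 in wild type and 0.616, 0.732 and 0.668 in pat1, above the bound of 0.1, so a block by sample was fitted beside the unpaired fit for the responses to the drug. Whether the samples are separate cultures of 1 clone is not stated. P-values of the unpaired fit rest on the spread between arrays of a group. Those of the fit with the block rest on how the drug response varied between samples.

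Named were the members past the threshold in any comparison, the largest difference per complex, the isoform pairs, the widest and narrowest spread, HAP4, HAP1 and PAT1, and up to 4 genes past the threshold per list. The rule's brightest and dimmest members per complex were left unranked, since probe sets differ in brightness for the same amount of RNA. Alternatives were other normalizations, filters, thresholds and limma settings, arrays left out in turn and, chosen after seeing the data, whole samples left out, also with the block, and other normalizations with the block.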

Additional observations from a re-analysis of the deposited data

How the results depend on the processing

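The median strain difference of the members stayed above 0 under every setting run, and ranged from 0.229 to 0.581 without drug and from 0.146 to 0.498 with drug when arrays or samples were left out. The number of members called depended on the settings. Without drug it was 16 with array weights, 2 for those at least 2-fold, 0 at an adjusted p under 0.01, 0 with only the groups compared, and 0 to 6 over the arrays or samples left out, beside 4 as reported. With drug it was 7 with array weights, 1 for those at least 2-fold, 0 at an adjusted p under 0.01, 0 without moderation of variances, and 0 to 4 over those left out, beside 3. The share of all genes called under each setting is not set beside these counts. They therefore do not show how the members stand against other genes. With the replicate block, 3 members were called for Congo Red in wild type and 1 in pat1, as under median centring, quantile and cyclic loess normalization with the block, with 0 to 3 and 0 to 1 over samples left out. The block changed no other call of a member. The replicate number did not pair the samples across strains (correlations from -0.547 to 0.264), and a replicate block by it gave 3 and 2 members. No member was called for the difference in response under any setting run.

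The medians of the responses were small and moved. In wild type the median was -0.0855 without the arrays with URA3 signal and -0.0951 to 0.208 over the arrays or samples left out. In pat1 it was -0.109 after median centring, -0.0733 after quantile and -0.105 after cyclic loess normalization, with the same values under the block, -0.11 with array weights, -0.207 without the URA3 arrays, and -0.239 to 0.116 over those left out. The difference in response was -0.199 after median centring and -0.199 after cyclic loess normalization, with and without the block, and -0.314 to 0.0615 over those left out.

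Some single responses changed sign, none of them called without the block. For COX4 in wild type the value was -0.0143 without the URA3 arrays, and -0.0212 to 0.302 over those left out. For CYC7 in wild type it ran from -0.884 to 0.0319, for SDH2 in pat1 from -0.573 to 0.179, and for the SDH2 difference in response from -0.688 to 0.0637. The causes were not tested. The 3 arrays per group limit what can be called.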
